A study of Mus musculus with 10 samples.

Results

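The genes described here are 9 genes of the interferon response and of RNA sensing: the transcription factors *Irf1*, *Irf7* and *Irf9*, the RNA sensors *Ifih1* and *Ddx58*, and the interferon-stimulated effectors *Isg15*, *Ifit1*, *Ifit3* and *Bst2*. They were taken by symbol from a table of raw read counts, in which each of the 9 symbols was found once among 43346 genes. RNA sequencing of O9-1 cells, a tetraploid mouse line of cranial neural crest origin, gave 4 libraries of biologically independent wildtype samples, 3 libraries of Kat5 ko clones and 3 libraries of Ep400 ko clones. Kat5 is the histone acetyltransferase and Ep400 the ATP-dependent remodeler of the Tip60/Ep400 chromatin complex, and each knockout was compared with wildtype to learn which genes depend on it. The clones, called Kat5/1 to Kat5/3 and Ep400/1 to Ep400/3, were made by transfection with a plasmid for Cas9 and a guide together with an EGFP plasmid, sorted for EGFP and expanded from single cells. The methods describe no transfection or cloning of the wildtype samples, so the loss of the targeted gene and the history of a clone cannot be told apart. By the study's sequence analysis of the targeted sites, all Kat5 ko alleles and all alleles of clone Ep400/1 carried predicted frameshifts, whereas clones Ep400/2 and Ep400/3 kept alleles with short in-frame deletions at the ATP binding site. The study's stainings detected no Ep400 protein in any Ep400 ko clone and no Kat5 protein in any Kat5 ko clone. All cells grew on Matrigel in preconditioned medium, and the labels name no stimulus with interferon, virus or nucleic acid.

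Interferons are secreted proteins that cells release when sensors find foreign or misplaced nucleic acid. Ifih1 (MDA5) and Ddx58 (RIG-I) bind double-stranded RNA in the cytosol and signal through the adaptor Mavs to Irf3 and Irf7, which switch on interferon genes. Released interferon binds Ifnar1 and Ifnar2, the kinases Jak1 and Tyk2 phosphorylate STAT factors such as Stat2, which joins Irf9 in the complex ISGF3, and this complex binds interferon-stimulated response elements (ISRE) in promoters of interferon-stimulated genes. Type II interferon acts through gamma-activated sites (GAS), and Irf1 is a classical gene with such a site. Most of the sensors and transcription factors of this pathway are themselves interferon-stimulated, so that ongoing signalling usually raises many of them.

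Promoter sequences are shown to mark where letters of the ISRE and GAS motifs occur near the starts of the 9 genes. Both strands of the RefSeq promoter windows (GRCm38.p6, 250 bases before to 50 after the annotated start) were searched for the ISRE core GAAANNGAAA and for the GAS motif TTCNNNGAA, where N is any base. All 9 genes had a window, and *Irf1* and *Irf9* had a pair of them. Of all 32851 windows of this length, 3.44% held the ISRE core and 8.3% held the GAS motif. The stretches below lie upstream of the start, are written 5′ to 3′ on the strand of the gene, and have the ISRE cores in capitals, or for *Irf1* the GAS motif, also where the match lies on the other strand. They are *Isg15* (chr4:156200850-156200921, minus strand), *Ifit1* (chr19:34640760-34640838, plus strand), *Ifit3* (chr19:34583348-34583441, plus strand), *Bst2* (chr8:71537562-71537627, minus strand) and *Irf1* (chr11:53769899-53769957, plus strand).
Isg15: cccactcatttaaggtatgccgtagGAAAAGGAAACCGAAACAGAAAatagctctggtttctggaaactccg
Ifit1: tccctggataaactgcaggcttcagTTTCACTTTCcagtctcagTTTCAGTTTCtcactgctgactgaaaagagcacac
Ifit3: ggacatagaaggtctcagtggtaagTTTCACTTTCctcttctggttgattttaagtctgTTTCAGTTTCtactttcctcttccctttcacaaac
Bst2: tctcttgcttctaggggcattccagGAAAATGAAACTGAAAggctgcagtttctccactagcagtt
Irf1: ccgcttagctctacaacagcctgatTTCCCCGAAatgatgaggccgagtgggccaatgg

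*Isg15* held 3 overlapping ISRE cores between bases −78 and −57 from the start, *Ifit1* 2 separate cores from −104 and −85, *Ifit3* 2 from −156 and −122, and *Bst2* 2 overlapping cores between −130 and −115. In *Bst2* a GAS match from −136 to −128 overlapped the first core. *Ifih1* and *Ddx58* each held 1 core, after the start, at bases 33 to 42 and 3 to 12. *Irf1* had no ISRE core but the GAS match from −90 to −82, and the windows of *Irf7* and *Irf9* held neither motif. A match is a description of letters, and binding was not measured. The absence of an exact match in these windows does not show that a gene has no binding element.

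**Figure D1:**
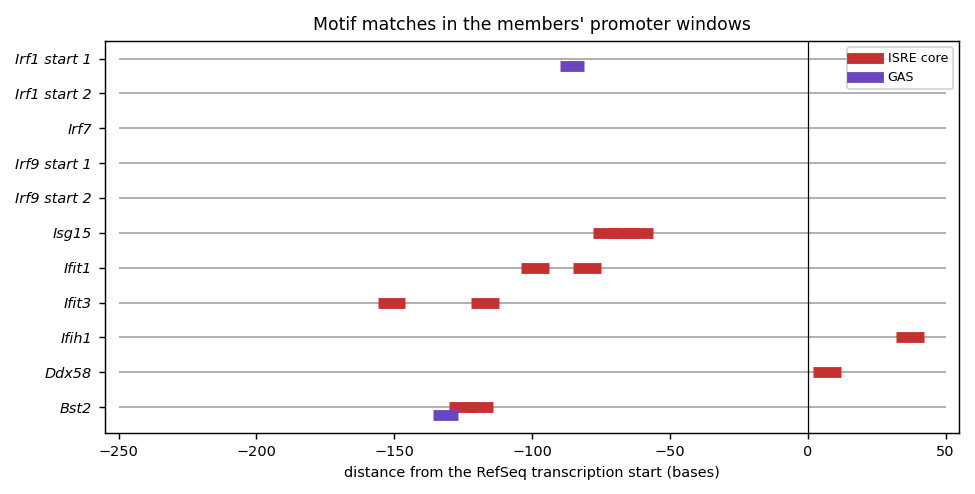
Motif matches in the RefSeq promoter windows of the 9 genes, by distance in bases from the annotated start on the x axis, with 1 line per window (*Irf1* and *Irf9* have a pair each). Red marks are ISRE cores and purple marks GAS matches. The cores of *Isg15*, *Ifit1*, *Ifit3* and *Bst2* lie upstream of the start and those of *Ifih1* and *Ddx58* after it.

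The members lie on chromosomes 2, 4, 7, 8, 11, 14 and 19 in the GENCODE M21 annotation of GRCm38 (mm10), and all are protein-coding. *Irf1* (ENSMUSG00000018899) spans chr11:53770014-53778374 and overlaps *Gm17334* on the opposite strand. *Irf7* (ENSMUSG00000025498, chr7:141262706-141266481) overlaps *Phrf1* on the opposite strand, and *Irf9* (ENSMUSG00000002325, chr14:55603571-55610030) overlaps *Rnf31* on the same strand. Libraries were made with a stranded kit, but whether counting used the strand is not given in the sources used here, so reads of these pairs may be shared. *Isg15* (ENSMUSG00000035692) spans chr4:156199424-156200818, *Ifih1* (ENSMUSG00000026896) chr2:62595798-62646255, *Ddx58* (ENSMUSG00000040296) chr4:40203773-40239828 and *Bst2* (ENSMUSG00000046718) chr8:71534255-71537456, with no overlapping gene. *Ifit1* (ENSMUSG00000034459, chr19:34640871-34650009) and *Ifit3* (ENSMUSG00000074896, chr19:34583531-34588731) belong to a gene cluster of near copies. Of all stretches of 100 bases, the read length, in the transcripts of *Ifit3*, 31.7% also occur in *Ifit3b*, which was not analysed here, and 3.29% of those of *Ifit1* occur in *Ifit1bl2*. How reads that match both genes were counted is not known, and the levels of *Ifit3* are uncertain to that extent.

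Each library held from 30968945 to 48301792 reads counted on genes, and mitochondrial genes took 0.893% to 3.24% of them, with the highest share in clone Ep400/3. *Kat5* had 48.8 to 57.5 CPM (read counts relative to library size) in wildtype cells and 22.9, 16.4 and 23.2 CPM in clones Kat5/1, Kat5/2 and Kat5/3. *Ep400* had 156.7 to 165.2 CPM in wildtype cells and 54.7, 61.4 and 59.7 CPM in clones Ep400/1, Ep400/2 and Ep400/3, so the targeted transcript was below the wildtype range in every clone. All CPM values use library sizes scaled by TMM over the 10 libraries. Clone Ep400/3 and clone Kat5/2 stood apart from the others, and each was the extreme of the 10 libraries for more genes than any of the other 8 libraries. Ep400/3 was the highest for 22.2% of the 14079 genes past the filter and the lowest for 20.7%, and Kat5/2 was the highest for 16.9% and the lowest for 17.8%. Results are therefore given with and without these clones.

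Identity of the cells was checked by markers. Of 18 neural crest markers, *Prrx1* had the highest level with 603 to 2158 CPM, and *Sox10*, a defining marker of migrating neural crest, had 0 counts in all libraries, which allows up to 0.0989 CPM in the library with the lowest scaled library size. The summed level of the 18 markers was 1260 to 1512 CPM in wildtype cells, 1241 to 1395 CPM in Kat5 ko clones and 2019 to 3342 CPM in Ep400 ko clones. Single markers went both ways. In clone Ep400/3, *Prrx1* (2158 CPM), *Pdgfra* (648 CPM), *Tfap2a*, *Snai2* and *Ednra* had their highest level of all libraries. *Ets1*, *Nes* and *Snai1* had their lowest there (56.5, 24.6 and 14.2 CPM), and *Cdh6* was at 0. Markers of macrophages and other leukocytes, cells that often express interferon-stimulated genes, summed to 17.6 to 29.5 CPM over 11 genes in wildtype cells, to 16.8 to 20.6 CPM in Kat5 ko and to 7.04 to 23.6 CPM in Ep400 ko clones. Most of this came from *Cd14* and *Cd68*, while *Tyrobp* and *Cd3e* were at 0 in all libraries and *Ptprc* (CD45), the general leukocyte marker, reached 0.441 CPM at most. In clone Ep400/3, *Cd14* had its lowest level of all libraries with 4.06 CPM, and so had *Cd68* with 2.39 CPM. *Lyz2*, *Fcgr3* and *Aif1* had their highest levels in the same clone, with 0.1245, 0.1494 and 0.0498 CPM, all near the limit of detection. Endothelial markers summed to 1.68 CPM at most and epithelial markers to 4.80 CPM, both in wildtype libraries.

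In wildtype cells the members were present at low to moderate levels and in a wide order. Per kilobase of exon, *Bst2* led with 54.7 ± 22.6 CPM per kb (SD, n = 4), followed by *Irf1* with 10.9 ± 1.89 CPM per kb. The wildtype ranges of both, 35.7 to 87.3 and 8.73 to 13.3 CPM per kb, overlapped with no other member. *Ddx58* (3.329 ± 1.203 CPM per kb), *Ifit1* (3.25 ± 2.13), *Irf9* (3.09 ± 1.48), *Isg15* (2.81 ± 1.71) and *Ifit3* (2.46 ± 1.39) were next and could not be ordered, since their ranges overlapped. *Irf7* had 0.910 ± 0.743 CPM per kb and *Ifih1* was the lowest with 0.299 ± 0.164 CPM per kb, and the ranges of these neighbours overlapped as well. The wildtype libraries differed among themselves. Wildtype library 3 was the highest of the 4 for 8 of the 9 members, against 33.3% of all genes, and wildtype library 2 was the lowest for 7 of the 9, against 27.5% of all genes, with *Bst2* as an exception in both cases and *Ifih1* in the second. The span within wildtype reached 12.9-fold for *Ifit1*, from 1.16 to 14.9 CPM, and was 1.52-fold for *Irf1*.

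**Figure D2:**
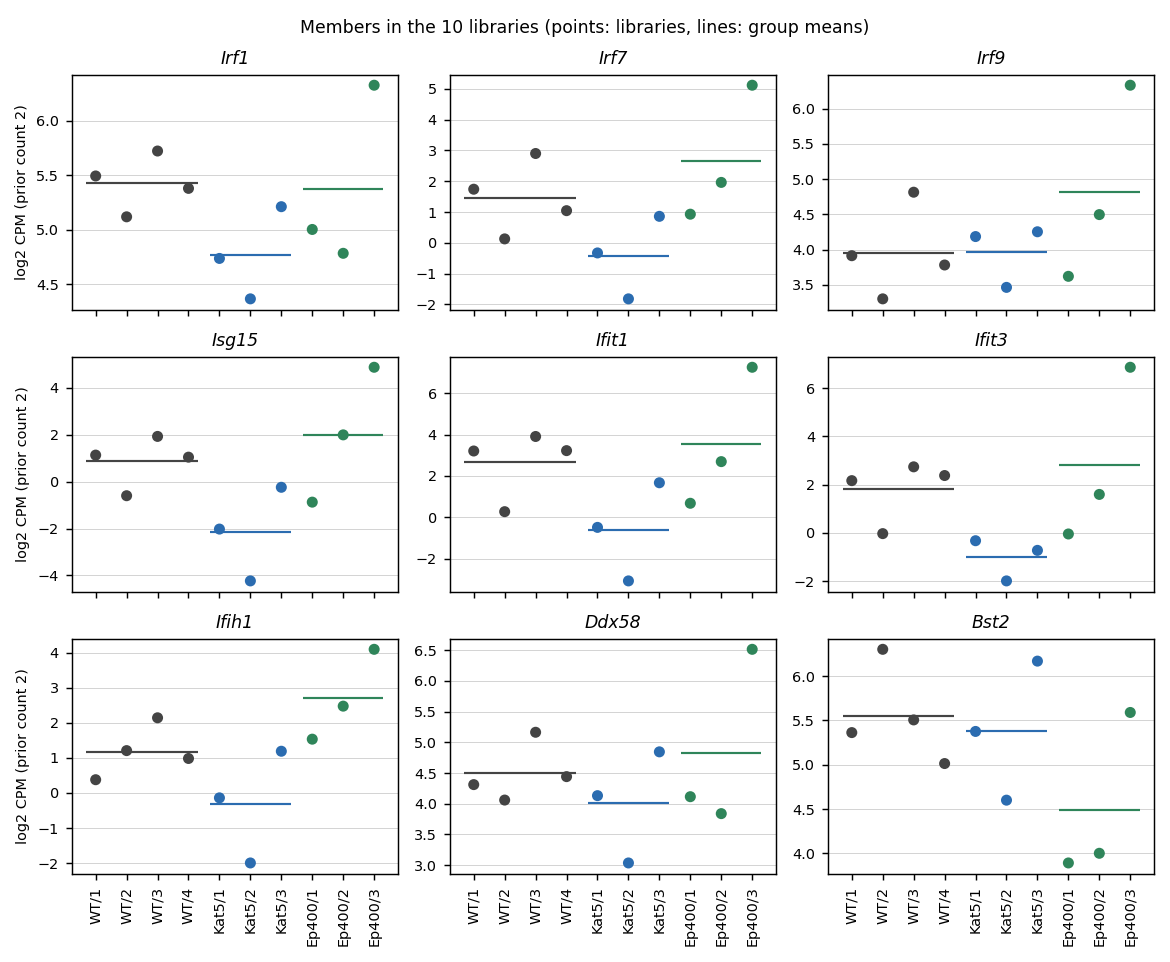
Levels of the 9 members in the 10 libraries, as log2 CPM with a prior count of 2 on the y axis (each panel has its own range), with points for libraries and lines for group means (WT, wildtype in grey; Kat5 ko in blue; Ep400 ko in green). Clone Ep400/3 is the highest library in every panel except that of *Bst2*, and clone Kat5/2 is the lowest in every panel except those of *Irf9* and *Bst2*.

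No member passed the test in any of the comparisons, and the values by clone show wide spread within each knockout. Relative to wildtype, Kat5 ko clones had lower fitted levels for 9 of 9 members, with the lowest values in clone Kat5/2. Ep400 ko clones had higher fitted levels for 8 of 9 members, but clone Ep400/3 alone carried the high values, and clones Ep400/1 and Ep400/2 were within the wildtype range or below it, except for *Ifih1* and *Isg15* in Ep400/2. Since RNA of whole cultures was sequenced, less RNA per cell and fewer cells with the transcript cannot be told apart.

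Among the sensors, *Ifih1*, which detects long double-stranded RNA, had 1.25, 2.25, 4.36 and 1.92 CPM in wildtype libraries 1 to 4. It had 0.854, 0.198 and 2.23 CPM in the Kat5 ko clones and 2.84, 5.50 and 17.0 CPM in the Ep400 ko clones, in the order of their numbers. Clones Ep400/2 and Ep400/3 thus lay above all wildtype libraries, clone Ep400/1 was within their range, and every Ep400 ko clone was above every Kat5 ko clone. The log2-fold change was −1.18 (standard error, SE, 0.74, adjusted p = 0.38) for Kat5 ko and 1.79 (SE 0.63, adjusted p = 0.0924) for Ep400 ko. These and the following p-values come from the quasi-likelihood test of edgeR, adjusted by Benjamini-Hochberg over all genes tested. Between the knockouts it was 2.91 (SE 0.97, adjusted p = 0.0909).

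*Ddx58*, the sensor of short double-stranded RNA with a 5′ triphosphate, had 19.8, 16.6, 35.8 and 21.7 CPM in wildtype cells. Kat5 ko clones had 17.5, 8.14 and 28.7 CPM and Ep400 ko clones 17.3, 14.2 and 91.5 CPM. The highest level in clone Ep400/3 was 2.56-fold that of the highest wildtype library, while both other Ep400 ko clones were in the lower part of the wildtype range or below it. The log2-fold changes of −0.40 (SE 0.42, adjusted p = 0.605) for Kat5 ko and 0.80 (SE 0.61, adjusted p = 0.389) for Ep400 ko were within or near their errors.

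Of the transcription factors, *Irf1* was the steadiest. It had 45.0, 34.7, 52.8 and 41.6 CPM in wildtype cells, 26.6, 20.6 and 37.0 CPM in Kat5 ko clones and 32.0, 27.5 and 80.3 CPM in Ep400 ko clones. Clones Kat5/1, Kat5/2, Ep400/1 and Ep400/2 were below the wildtype range, clone Kat5/3 was within it and clone Ep400/3 above it. The log2-fold change for Kat5 ko was −0.66 (SE 0.23, adjusted p = 0.153), and for Ep400 ko 0.098 (SE 0.36, adjusted p = 0.873).

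*Irf7*, the interferon-inducible amplifier of interferon gene transcription, had 3.29, 1.04, 7.41 and 2.01 CPM in wildtype cells, 0.744, 0.231 and 1.76 CPM in Kat5 ko clones and 1.85, 3.84 and 34.6 CPM in Ep400 ko clones. Kat5/3 lay in the wildtype range and both other Kat5 ko clones below it, whereas of the Ep400 ko clones only Ep400/3 lay outside, 4.67-fold above the highest wildtype library. The log2-fold change was −1.93 for Kat5 ko (SE 0.82, adjusted p = 0.214) and 1.97 for Ep400 ko (SE 0.98, adjusted p = 0.203). Between the knockouts it was 3.84 (SE 1.24, adjusted p = 0.0854), and every Ep400 ko clone was above every Kat5 ko clone, although 1.85 CPM in Ep400/1 and 1.76 CPM in Kat5/3 were close.

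*Irf9*, the DNA-binding subunit of ISGF3, had 15.01, 9.80, 28.1 and 13.7 CPM in wildtype cells and 18.1, 10.97 and 19.02 CPM in Kat5 ko clones, all inside the wildtype range. In Ep400 ko clones it had 12.2, 22.5 and 80.7 CPM, with Ep400/3 above that range. Log2-fold changes were −0.082 for Kat5 ko (SE 0.37, adjusted p = 0.917) and 1.21 for Ep400 ko (SE 0.60, adjusted p = 0.202).

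The effectors showed the widest span. *Isg15*, a ubiquitin-like protein that is conjugated to other proteins, had 2.14, 0.607, 3.76 and 2.01 CPM in wildtype cells. Kat5 ko clones had 0.193, 0 and 0.793 CPM, which were 7, 0 and 36 reads, and a count of 0 in Kat5/2 allows up to 0.0989 CPM. Ep400 ko clones had 0.493, 3.94 and 29.4 CPM, from below the wildtype range in Ep400/1 and slightly above it in Ep400/2 to 7.82-fold above the highest wildtype library in Ep400/3. The log2-fold change was −2.67 for Kat5 ko (SE 1.06, adjusted p = 0.188), 2.40 for Ep400 ko (SE 1.08, adjusted p = 0.163) and 5.02 between the knockouts (SE 1.69, adjusted p = 0.0934).

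*Ifit1*, which binds foreign RNA ends and blocks their translation, had 9.16, 1.16, 14.9 and 9.28 CPM in wildtype cells. It had 24, 2 and 142 reads in the Kat5 ko clones, or 0.661, 0.0659 and 3.13 CPM, and 1.55, 6.41 and 151.9 CPM in the Ep400 ko clones. Wildtype library 2 was below clones Kat5/3 and Ep400/1, and clone Ep400/3 was 10.2-fold above the highest wildtype library. For Kat5 ko the log2-fold change was −2.76 (SE 1.13, adjusted p = 0.198), for Ep400 ko 2.63 (SE 1.31, adjusted p = 0.202) and between the knockouts 5.31 (SE 1.87, adjusted p = 0.101).

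*Ifit3*, a partner of Ifit1 in the same protein complex, had 4.44, 0.925, 6.63 and 5.15 CPM in wildtype cells, 0.744, 0.198 and 0.551 CPM in Kat5 ko clones and 0.915, 2.97 and 117.2 CPM in Ep400 ko clones. It was the only member with all Kat5 ko clones below the wildtype range, by a small gap to wildtype library 2. Its log2-fold change for Kat5 ko was −3.12 (SE 0.74, adjusted p = 0.0787), the smallest p of the 9 members in that comparison. For Ep400 ko it was 3.23 (SE 1.37, adjusted p = 0.143), and between the knockouts 6.29 (SE 1.85, adjusted p = 0.0693), with every Ep400 ko clone above every Kat5 ko clone.

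*Bst2* (tetherin), a membrane protein that holds budding virus at the cell surface, did not follow the other members. It had 41.1, 78.8, 45.4 and 32.3 CPM in wildtype cells and 41.5, 24.2 and 71.9 CPM in Kat5 ko clones. In Ep400 ko clones it had 14.8, 16.0 and 48.1 CPM, so clones Ep400/1 and Ep400/2 were below all wildtype and all Kat5 ko libraries and clone Ep400/3 was within the wildtype range. The log2-fold change was −0.14 for Kat5 ko (SE 0.40, adjusted p = 0.872) and −0.91 for Ep400 ko (SE 0.47, adjusted p = 0.214). Without clone Ep400/3 it was −1.69 (SE 0.36, adjusted p = 0.0263), and 12.4% of all genes were called in that fit. Genes of chromosome 8, where *Bst2* lies, had median log2 differences from wildtype of −0.21, −0.00053 and −0.14 in the 3 Ep400 ko clones.

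Set against all genes, the comparison of Kat5 ko with wildtype called 0 of 9 members at an adjusted p of at most 0.05 by edgeR, and 0.499% of 13434 genes tested. At an unadjusted p under 0.05, 5 of 9 members (*Irf1*, *Irf7*, *Isg15*, *Ifit1* and *Ifit3*, all lower) stood against 22.3% of all genes. DESeq2 called 2 members, *Isg15* (adjusted p = 0.0284) and *Ifit3* (adjusted p = 6.82e-05), among 6.32% of the 22025 genes in its fit. Its shares, here and below, are over all genes with any read. They lack the low-count filter used for edgeR and limma-voom and are not directly comparable. With limma-voom 0 members and 0.729% of all genes were called. All Kat5 ko clones were below the wildtype range for 1 member, against 10.2% of all genes, and above it for 0 members, against 9.67%. The median log2-fold change of the 9 members was −1.18, that of all genes 3.2e-05. Without clone Kat5/2 the median of the members was −0.68, and *Irf9* and *Bst2* had fold changes above 0. Without clone Kat5/1, *Ifit3* was called (adjusted p = 0.034) among 19.3% of all genes.

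For Ep400 ko against wildtype, 0 of 9 members were called by edgeR, against 13.9% of 13836 genes. At an unadjusted p under 0.05 there were 2, *Ifit3* and *Ifih1*, both higher, against 32.3% of all genes. DESeq2 called *Ifih1* (adjusted p = 0.0199) among 14.1% of the 22532 genes in its fit. It gave no adjusted p for *Ifit1*, *Ifit3* and *Ddx58*, which could therefore not be called by it. With limma-voom 0 members and 13.6% of all genes were called. The ranges of Ep400 ko clones and wildtype libraries overlapped for all 9 members, while 14.1% of all genes had all clones below the wildtype libraries and 16.1% had them above. The median log2-fold change of the members was 1.79, and that of all genes 0.043. Without clone Ep400/3 it was −0.55, with 3 members above and 6 below 0, and *Irf1*, *Irf7*, *Ifit1*, *Ifit3* and *Ddx58* turned from above to below 0. Without clone Ep400/1, *Isg15* and *Ifih1* were called (adjusted p = 0.0483 and 0.043) among 14.3% of all genes.

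**Figure D3:**
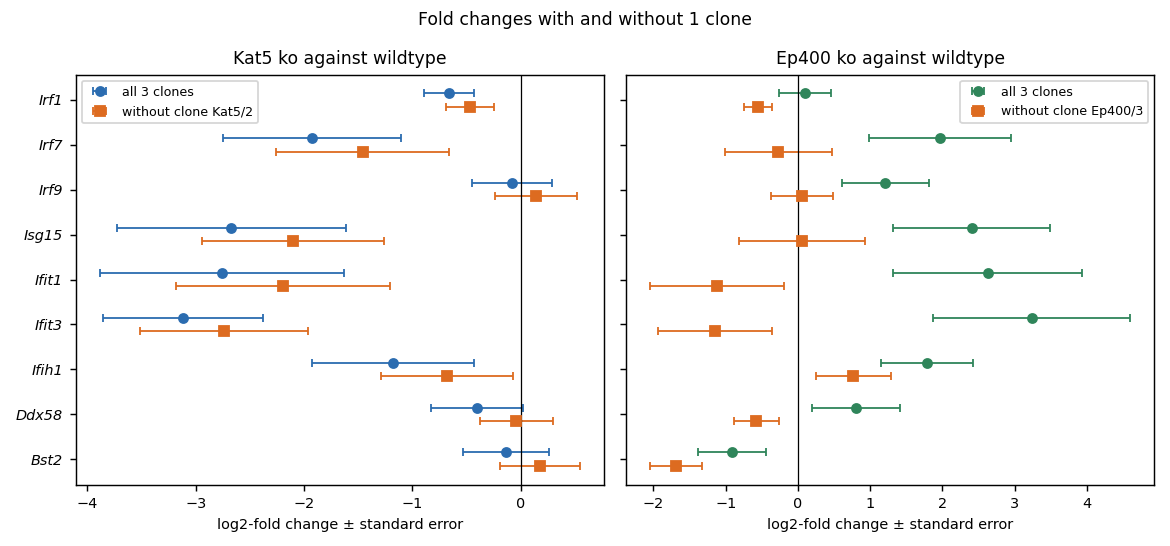
Log2-fold change of each member (x axis) with its standard error from edgeR's fit, for Kat5 ko (left) and Ep400 ko (right) against wildtype, with all 3 clones (circles) and without clone Kat5/2 or clone Ep400/3 (orange squares). Leaving out Ep400/3 moves *Ifit3* from 3.23 to −1.15 and *Ifit1* from 2.63 to −1.12, whereas leaving out Kat5/2 keeps *Ifit3* at −2.74.

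Both comparisons above share their wildtype libraries, so the clones were also compared directly. Between the knockouts, 0 of 9 members were called by edgeR, against 7.32% of 13587 genes, and 5 (*Irf7*, *Isg15*, *Ifit1*, *Ifit3* and *Ifih1*, all higher in Ep400 ko) had an unadjusted p under 0.05, against 32.4% of all genes. DESeq2 called *Irf7*, *Isg15* and *Ifih1* among 13.5% of the 22321 genes in its fit. It gave no adjusted p for *Ifit1* and *Ifit3*, which could therefore not be called by it. A single fit of all libraries called these 5 genes, with 25.1% of all genes called, and limma-voom called 0 members and 8.33% of all genes. All Ep400 ko clones were above all Kat5 ko clones for 3 members, against 20.5% of all genes. The median log2-fold change was 2.91 with all clones and 1.60 without clone Ep400/3, when 0 members were called.

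Clone Ep400/3 differed from the other Ep400 ko clones in all members. It was at least 2-fold above both of them for 9 of 9 members, against 6.75% of 14079 genes, as a description of these libraries without a test. The ratio to the higher of the other clones was 39.5 for *Ifit3*, 23.7 for *Ifit1*, 9.01 for *Irf7*, 7.47 for *Isg15*, 5.30 for *Ddx58*, 3.58 for *Irf9*, 3.09 for *Ifih1*, 3.01 for *Bst2* and 2.51 for *Irf1*. Clone Ep400/3 was the highest of the 10 libraries for 8 of 9 members, against 22.2% of all genes. Clone Kat5/2 was the lowest of the 10 libraries for 7 of 9 members, against 17.5% of all genes. This share leaves out ties between libraries, whereas the 17.8% given above includes some. Both *Ep400* and *Kat5* transcript levels in Ep400/3 were between those of the other Ep400 ko clones, and whether its mitochondrial share had a part in these levels was not tested.

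Other genes of the pathway were described by lists. Of 136 genes on 8 lists, 134 were in the table. Of 11 interferon genes, among them *Ifnb1*, 0 passed the filter on low counts, and no library had more than 3 reads on any of them. *Ifnb1* had 1 read in wildtype library 4 and 3 reads in clone Ep400/3, and the 11 genes had 16 reads in all 10 libraries together. Interferon transcripts were thus at or near the limit of detection at this depth, in Ep400/3 as in the others.

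Kat5 ko called 1 of 107 pathway genes tested (0.935%, against 0.499% of all genes), and 23 had an unadjusted p under 0.05, at which 22.3% of all genes lay. The called gene was *Tor3a*, an interferon-inducible ATPase, which fell by 1.15 on the log2 scale (SE 0.18, adjusted p = 0.0466), from 29.8 to 45.2 CPM in wildtype cells to 16.4, 16.9 and 15.5 CPM in the clones. With 1 library left out at a time its adjusted p was between 0.0126 and 0.186, and only without clone Kat5/1 was it called. *Stat2* was below the wildtype range in all Kat5 ko clones, with 22.05, 14.04 and 23.2 CPM against 33.2 to 67.1 CPM, at a log2-fold change of −1.14 (adjusted p = 0.096). *Dhx58* (LGP2), the regulatory relative of both sensors, was also below that range, with 2.48, 2.702 and 1.96 CPM against 4.05 to 10.3 CPM (log2-fold change −1.40, adjusted p = 0.102). So was *Pias1* (log2-fold change −0.23, adjusted p = 0.347). *Stat2*, *Dhx58* and *Pias1* did not pass the test, and 10.2% of all genes had all Kat5 ko clones below the wildtype range.

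Ep400 ko called 8 of 109 pathway genes (7.34%), 7 higher and 1 lower, against 13.9% of all genes, and 33 had an unadjusted p under 0.05, where 32.3% of all genes lay. Among receptors and JAK-STAT genes, 2 of 12 rose and 0 fell. *Ifnlr1*, the receptor subunit for interferon lambda, had 3.45, 2.69 and 8.61 CPM in Ep400 ko clones against 0 to 0.287 CPM in wildtype cells, 579 reads against 13 (ratio of scaled counts 58.0, exact 95% interval 33.7 to 109.6 for counting error only, adjusted p = 0.00822). With 0 to 9 reads per wildtype library, it passed the filter on low counts only through the Ep400 ko clones, where it is high. *Jak2*, the kinase of the interferon gamma receptor and of many cytokine receptors, had 94.3, 83.1 and 120.1 CPM against 48.7 to 62.9 CPM, a log2-fold change of 0.90 (SE 0.17, adjusted p = 0.0119). The subunits of the type I receptor did not pass the test, with log2-fold changes of −0.034 for *Ifnar1* and 0.14 for *Ifnar2*.

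Sensors and adaptors other than the members had 2 of 19 genes higher and 0 lower, against 13.9% of all genes called. *Mavs*, the adaptor of Ifih1 and Ddx58 on mitochondria, rose in all clones, to 84.1, 92.7 and 79.5 CPM from 46.3 to 63.7 CPM in wildtype cells (log2-fold change 0.65, SE 0.14, adjusted p = 0.0214). *Ripk1*, a kinase of inflammatory and death signalling, rose by 0.47 on the log2 scale (SE 0.12, adjusted p = 0.0332). *Tlr3*, the endosomal receptor for double-stranded RNA, had a log2-fold change of 1.30 (adjusted p = 0.0812) and *Dhx58* of 1.42 (adjusted p = 0.0706). *Irf3*, the constitutive factor downstream of Mavs, had 24.9 to 35.8 CPM in wildtype cells, 31.7, 29.8 and 39.3 CPM in Ep400 ko clones and a log2-fold change of 0.13 (adjusted p = 0.635). Of the 7 IRF genes tested besides the members 0 were called by edgeR, DESeq2 or limma-voom. By edgeR 1 had an unadjusted p under 0.05, against 32.3% of all genes.

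Among negative regulators 1 of 9 genes was called, against 13.9% of all genes. It was the SUMO ligase gene *Pias1*, higher by 0.63 on the log2 scale (SE 0.16, adjusted p = 0.0374). *Usp18*, which removes Isg15 from proteins and blocks the type I receptor, had 0.422, 1.38 and 19.02 CPM in the Ep400 ko clones and 0.751 to 2.03 CPM in wildtype cells (log2-fold change 2.55, adjusted p = 0.14). Its high level was that of clone Ep400/3. Of the RNA and DNA effectors 1 of 15 was called, against 13.9% of all genes. This was *Rnaseh2a*, the catalytic subunit of an RNase that removes ribonucleotides from DNA. Its level was lower by 0.84 (SE 0.22, adjusted p = 0.0397), with 40.2, 48.9 and 24.7 CPM against 62.7 to 74.2 CPM. *Eif2ak2* (PKR) had a log2-fold change of 0.088 (adjusted p = 0.818).

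The 33 other interferon-stimulated genes tested had 2 called, both higher, against 13.9% of all genes, and a median log2-fold change of 1.15. At an unadjusted p under 0.05, 8 were higher and 1 lower, against 32.3% of all genes. DESeq2, run without the low-count filter, called 3 genes of this list higher, against 14.1% of the genes in its fit. With limma-voom 1 was called lower and 0 higher, against 13.6% of all genes. *Parp12* had 29.6, 25.6 and 68.2 CPM against 15.4 to 20.5 CPM in wildtype cells (log2-fold change 1.23, SE 0.32, adjusted p = 0.039) and *Trim21*, a cytosolic antibody receptor, 6.004, 3.81 and 16.9 CPM against 2.43 to 3.27 CPM (log2-fold change 1.69, SE 0.48, adjusted p = 0.0488). *Mx1*, an antiviral GTPase, had 12, 6 and 367 reads in the Ep400 ko clones and 0 to 87 reads in wildtype libraries (log2-fold change 1.94, adjusted p = 0.383), and *Rsad2* 0, 3 and 51 reads, which did not pass the filter. *Ifit2*, next to *Ifit1* and *Ifit3* on chromosome 19, had 40.4, 46.1 and 78.8 CPM against 33.6 to 63.2 CPM, with a log2-fold change of 0.077 (adjusted p = 0.875), and *Ifitm3*, an inhibitor of virus entry, had −0.84 (adjusted p = 0.25). Without clone Ep400/3, *Ifnlr1*, *Jak2*, *Mavs*, *Ripk1*, *Rnaseh2a* and *Parp12* were still called, while *Pias1* (adjusted p = 0.0583) and *Trim21* (adjusted p = 0.116) were not. With any 1 of the 7 libraries left out, *Ifnlr1* and *Jak2* kept an adjusted p of at most 0.0377 and 0.0454. The others lost their call in some of these fits, with adjusted p up to 0.0691 for *Mavs* (without wildtype library 1, 2 or 4 or clone Ep400/2), 0.104 for *Parp12* (without any wildtype library), 0.105 for *Ripk1* (any library but clone Ep400/3), 0.0959 for *Rnaseh2a* (any wildtype library or clone Ep400/1), and 0.107 and 0.121 for *Pias1* and *Trim21* (any wildtype library or clone Ep400/3).

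Antigen presentation genes, many of which respond to interferon gamma, had 0 of 14 called in either knockout by edgeR. Of all genes, 0.499% and 13.9% were called in Kat5 ko and Ep400 ko. At an unadjusted p under 0.05 there were 4 (1 higher, 3 lower) and 3 (all higher), against 22.3% and 32.3% of all genes. DESeq2 called 1 lower in Kat5 ko and 3 higher in Ep400 ko, against 6.32% and 14.1% of the genes in its fits. With limma-voom 0 were called in both, against 0.729% and 13.6% of all genes. *B2m*, the light chain of MHC class I, had 268 to 330 CPM in wildtype cells, 610, 173 and 276 CPM in Kat5 ko clones and 251, 291 and 377 CPM in Ep400 ko clones. These levels overlapped, with log2-fold changes of 0.25 for Kat5 ko and 0.065 for Ep400 ko (adjusted p = 0.732 and 0.824). Between the knockouts, 3 of 106 pathway genes were called (2.83%, against 7.32% of all genes), all higher in Ep400 ko: *Ifnlr1*, *Dhx58* and *Socs3*, an inhibitor of cytokine receptors that was named after its values had been seen.

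**Figure D4:**
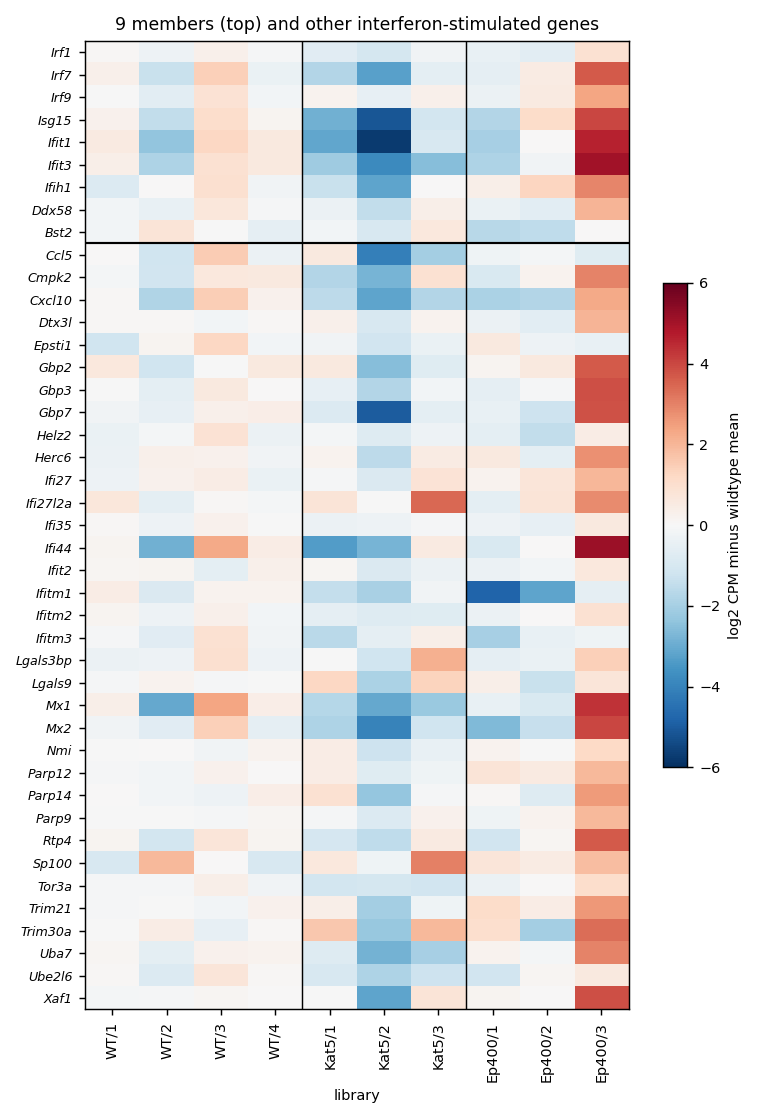
Difference of log2 CPM from the wildtype mean (colour) for the 9 members (above the line) and 34 other interferon-stimulated genes past the filter over all libraries, in the 10 libraries. The column of clone Ep400/3 is red for most genes, with *Ifit3* at 5.06, the column of clone Kat5/2 is blue for most, and the columns of clones Ep400/1 and Ep400/2 hold both colours, from −4.81 for *Ifitm1* in Ep400/1 to 1.30 for *Ifih1* in Ep400/2.

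By library, clone Ep400/3 was at least 2-fold above both other Ep400 ko clones for 26 of 34 other interferon-stimulated genes, for 43 of all 112 pathway genes and, as stated, for 6.75% of all genes. In the other lists this held for 6 of 17 RNA and DNA effectors, 5 of 14 antigen presentation genes, 3 of 12 receptor and JAK-STAT genes, 1 of 7 other IRF factors, 1 of 9 negative regulators and 1 of 19 other sensors and adaptors. *Stat2* had 27.9, 47.7 and 129.1 CPM in the Ep400 ko clones against 33.2 to 67.1 CPM in wildtype cells. The median log2 difference from the wildtype mean over the members was −0.52, 0.040 and 2.92 in clones Ep400/1, Ep400/2 and Ep400/3, and −1.32, −3.17 and −0.22 in clones Kat5/1, Kat5/2 and Kat5/3. Wildtype libraries had −0.65 to 0.93. Over the other interferon-stimulated genes the medians were −0.33, −0.11 and 2.03 in the Ep400 ko clones and −0.10, −1.65 and −0.19 in the Kat5 ko clones.

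**Figure D5:**
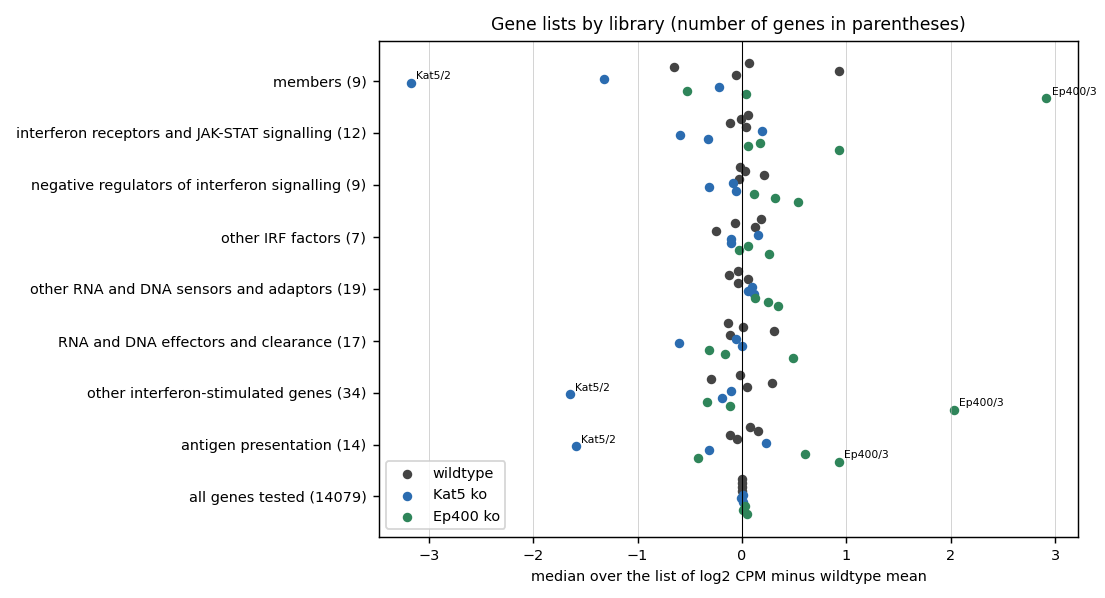
Median over each list of the difference of log2 CPM from the wildtype mean (x axis), with 1 point per library (wildtype grey, Kat5 ko blue, Ep400 ko green) and the number of genes past the filter in parentheses. For the members, clone Kat5/2 lies at −3.17 and clone Ep400/3 at 2.92, and the other interferon-stimulated genes show the same clones at the ends with −1.65 and 2.03.

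The genes nearest to the members in their pattern over the 10 libraries were *Irgm2*, *Gbp3*, *Ccdc3*, *Cmpk2* and *Rtp4*. Nearness was the root mean square difference between centred log2 CPM of a gene and the mean centred log2 CPM of the members, which was 0.387 for *Irgm2*, 0.451 for *Gbp3*, 0.480 for *Ccdc3*, 0.494 for *Cmpk2* and 0.495 for *Rtp4*, with a median of 1.46 over 14070 genes. *Irgm2* and *Gbp3* encode interferon-inducible GTPases, and *Cmpk2* and *Rtp4* are interferon-stimulated as well. *Irgm2* had 2.17 to 4.71 CPM in wildtype cells, 1.32, 0.395 and 2.05 CPM in Kat5 ko clones and 1.95, 2.19 and 29.3 CPM in Ep400 ko clones. *Ccdc3* had 1.503 to 4.34 CPM in wildtype cells and 22.9 CPM in clone Ep400/3. All these genes share the libraries, and the order is a description.

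*Ifit1* and *Ifit3* lie on chromosome 19, whose 484 genes had median log2 differences from wildtype of −0.088, −0.20 and −0.31 in the Kat5 ko clones and of 0.29, 0.27 and 0.24 in the Ep400 ko clones. With an offset for such chromosome shifts, *Ifit3* had a log2-fold change of −2.93 (adjusted p = 0.0814) for Kat5 ko and 2.99 (adjusted p = 0.174) for Ep400 ko, and *Ifit1* −2.50 (adjusted p = 0.233) and 2.38 (adjusted p = 0.249). The offset was the chromosome median of these same libraries, and whether copy number or a local change had a part in the differences was not tested.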

How the data were processed

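RNA of 10 libraries was sequenced by the authors with poly-A enrichment (stranded kit, paired reads of 100 bases) and mapped to mm10. Per gene, the authors deposited raw counts, which are whole numbers of reads. The submitters' processing notes name bcl2fastq 2.20, STAR 2.7.3, DESeq2 1.36.0 and R 4.2.1, and the counting program and annotation are not given in the sources used here. The normalized tables (14 columns) were not used. Samples were grouped by their labels.

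With R 4.3.3 and edgeR 4.0.16, each pair of groups was fitted separately: filterByExpr, TMM, glmQLFit and the quasi-likelihood test, with Benjamini-Hochberg adjustment over all genes tested and a call at an adjusted p of at most 0.05. Alternatives used DESeq2 1.42.0, limma 3.58.1 (voom), other normalizations, filters and fits, a replicate block, a chromosome offset and each library left out. The procedure was also run on simulated counts, drawn with no clone that deviates from its group. That run does not bear on results carried by a single clone. Of 43346 gene IDs, 42462 matched GENCODE M21.

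The members and gene lists were chosen with earlier results of these data known. Named by rule were the members, the targeted genes, fixed pathway genes, up to 4 called genes per list and knockout with the smallest p, the 5 genes nearest in pattern and the markers with the highest levels. One of the fixed pathway genes is not reported here. Replicates are separate wildtype samples or clones, and p-values measure the spread between them. Between replicates the chi-square of the counts was 28.1 to 258 per degree of freedom, so none were one library deposited again.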

Additional observations from a re-analysis of the deposited data

Results flagged for a closer look

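The difference between Ep400 ko and Kat5 ko clones passed the quasi-likelihood test of edgeR (adjusted by Benjamini-Hochberg) for 3 of 106 pathway genes (2.83%, against 7.32% of all genes). Each was higher in all 3 Ep400 ko clones than in all 3 Kat5 ko clones, as were 20.5% of all genes. The 3 genes were picked by their p in these data, so the separate ranges are no further evidence. *Ifnlr1* had a log2 difference of 7.30 (standard error 0.97, adjusted p = 0.0206), which rests on 3 reads in the Kat5 ko clones together and depends on the prior count of the fit. This gene passed the filter on low counts only through the Ep400 ko clones and was not tested in Kat5 ko against wildtype. The ratio of scaled counts was 188.3, with an exact 95% interval of 64.1 to 915.7 for counting error only. *Dhx58* had a log2 difference of 2.77 (standard error 0.49, adjusted p = 0.0313), from 2.48, 2.702 and 1.96 CPM in Kat5 ko clones to 7.06, 19.5 and 22.9 CPM in Ep400 ko clones. *Socs3* had a log2 difference of 1.68 (standard error 0.29, adjusted p = 0.0304), from 32.6, 24.9 and 30.3 CPM to 60.4, 103.1 and 121.5 CPM, and wildtype library 3, with 100.8 CPM, was as high as the Ep400 ko clones. Without clone Ep400/3 the adjusted p was 0.0746 for *Ifnlr1*, 0.092 for *Dhx58* and 0.092 for *Socs3*, and without clone Kat5/2 it was 0.0399, 0.0782 and 0.0802. All 3 also had an adjusted p above 0.05 without clone Kat5/3 or clone Ep400/2, at most 0.0925, 0.122 and 0.115.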

How the results depend on the processing

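The count of members called was 0 in each comparison and was changed by DESeq2 (2 for Kat5 ko, 1 for Ep400 ko, 3 between the knockouts), by dropping the filter on low counts (4 between the knockouts) and by a single fit of all libraries (5 between the knockouts). With 1 library left out it was 0 to 1 for Kat5 ko, 0 to 2 for Ep400 ko and 0 between the knockouts. Pathway genes called, 1, 8 and 3 in the same order, were 14, 18 and 24 with DESeq2. They were 2 (Kat5 ko) and 13 (between the knockouts) without the filter, 0 (Kat5 ko) and 24 (between the knockouts) in the single fit, 5 (between the knockouts) with the chromosome offset, and 0 to 16, 2 to 13 and 0 to 12 with 1 library left out. Same-numbered libraries had residual correlations of −0.0957 to 0.223, so the replicate numbers were not taken to pair them. With the replicate block 0 members were called in each comparison, pathway calls were 0, 0 and 2, and genes called in all were 0, 173 and 213. Genes called in all, 67, 1917 and 994, were 1391, 3175 and 3013 with DESeq2, 245, 2002 and 1803 without the filter, 26, 1273 and 3539 in the single fit, and 1 to 2651, 826 to 2016 and 4 to 2537 with 1 library left out. In clone Kat5/2, 0 and 2 reads on *Isg15* and *Ifit1* limit what this depth can show. The median log2-fold change of the members was 1.79 for Ep400 ko and −0.55 to 2.202 with 1 library left out, the lowest without clone Ep400/3. Values near 0 turned sign: *Irf9* for Kat5 ko to 0.0063 (limma-voom), and for Ep400 ko *Irf1* to −0.048 (limma-voom) and −0.078 (replicate block), *Ifnar1* to 8.2e-06 (library size alone), *Ifit2* to −0.18 and *B2m* to −0.050 (chromosome offset). *Ifit2* between the knockouts became −0.058 (chromosome offset). The cause of these changes was not tested.

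With 1 library left out, log2-fold changes that turned sign ranged as follows. For Kat5 ko, they were −0.60 to 0.20 (*Bst2*), −0.25 to 0.30 (*Irf9*), −0.42 to 0.58 (*B2m*), −0.28 to 0.056 (*Ifnar2*), −2.13 to 0.080 (*Usp18*), −0.20 to 0.031 (*Mavs*), −0.52 to 0.10 (*Parp12*), −0.94 to 0.056 (*Trim21*) and −0.099 to 0.050 (*Ripk1*). For Ep400 ko, they were −0.55 to 0.34 (*Irf1*), −0.27 to 2.65 (*Irf7*), −1.12 to 3.19 (*Ifit1*), −1.15 to 3.803 (*Ifit3*), −0.58 to 1.18 (*Ddx58*), −0.18 to 1.05 (*Stat2*), −0.41 to 3.10 (*Usp18*), −0.20 to 0.23 (*Eif2ak2*), −1.80 to 3.16 (*Mx1*), −0.28 to 0.25 (*Ifit2*), −0.13 to 0.051 (*Ifnar1*), −0.12 to 0.19 (*B2m*) and −0.18 to 0.61 (*Tor3a*). Between the knockouts, they were −0.57 to 0.43 (*B2m*), −0.73 to 0.23 (*Ifitm3*) and −0.22 to 1.65 (*Ddx58*).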
